A study of Homo sapiens with 2 samples.

Results

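Glycolysis and the response to low oxygen were described here through 35 genes: 17 glycolytic enzymes, 6 regulatory kinases, 5 genes of oxygen sensing and 7 hypoxia targets. They were taken by symbol from a fixed list, and all 35 were found among the 19220 gene symbols of the count table. The RNA came from H9, an established human T cell lymphoma line that is labelled wild type and as T lymphocytes, and that is itself a clone of an earlier lymphoma line. There was 1 library of untreated cells (0 h) and 1 library of cells kept for 6 h in 0.05 µM doxorubicin, an anthracycline drug that poisons topoisomerase II. The design sets exposed cells against unexposed ones. No untreated library at 6 h is part of it, so the drug cannot be told apart from time in culture or handling. With 1 library per condition no dispersion could be estimated, so no test was made and no value has a replicate. Higher and lower below refer to these 2 libraries alone, and fewer cells of a kind cannot be told apart from less RNA per cell.

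The untreated library held 33730703 counts and the treated library 50174434. Counts were scaled by TMM, a method that sets the bulk of genes to a common level, and are given as CPM, counts scaled to a common library size. Each ratio of treated over untreated carries an exact Clopper-Pearson interval at 95%, which covers counting error only. Genes with a difference of 1.5-fold or more and an interval that left out 1 were called, which is named the size rule here. The 11244 genes with at least 100 counts over both libraries were treated as measured, and all 35 members were among them. Of the T cell markers 12 of 15 were measured, with sums of 1682 CPM untreated and 1718 treated, while CD2, CD7 and CD28 had at most 13 counts in a library. Myeloid markers summed to 0.304 CPM untreated and 0.311 treated, with 0 of 8 measured and FCGR3A, S100A8 and S100A9 at 0 in both libraries. B cell markers had 4 of 8 measured and summed to 271 and 204 CPM, most of it CD79A, while PAX5 and CR2 were at 0. Epithelial and fibroblast markers had 3 of 9 measured, and summed to 87.5 and 73.8 CPM, most of it EPCAM, while KRT19 and DCN were at 0. Pluripotent stem cell markers had 1 of 6 measured, and NANOG, DPPA4 and TDGF1 were at 0. The part of other cell types in the results was not tested.

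Glycolysis splits glucose into pyruvate in a chain of cytosolic steps, and lactate dehydrogenase then converts pyruvate to lactate. Proliferating T cells and many lymphomas use the pathway heavily even where oxygen is plentiful. Its rate is set in part by hexokinase and by phosphofructokinase, whose strongest activator is made by the PFKFB enzymes. Pyruvate dehydrogenase kinases keep pyruvate from entering the citric acid cycle. Oxygen sensing acts on the same genes. The EGLN prolyl hydroxylases mark the hypoxia-inducible factor subunit HIF1A when oxygen is present, VHL directs the marked protein to degradation, and without oxygen the factor binds a short DNA core, ACGTG or GCGTG, near its targets. HIF1A is controlled mainly as a protein, so its mRNA level says little about its activity.

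The promoter stretches below show where that core lies in 6 members that range from the highest to the lowest ratios of the set. They come from RefSeq windows of build GRCh38.p14, which is not the build of the counts, and a window was listed for 30 of the 35 members. BNIP3L, NDRG1, PFKFB2, VEGFA and VHL had none listed. Each stretch lies in the 250 bases before a listed transcript start, runs 5′ to 3′ along the gene, and has every core in capitals, on either strand (CACGT and CACGC are the cores read from the opposite strand). The stretch of PFKFB4, at chr3:48556938-48556997 on the minus strand, belongs to the member with the highest ratio. ANKRD37, at chr4:185396676-185396705 on the plus strand, is the member with the lowest. GAPDH at chr12:6535156-6535215 and PGK1 at chrX:78104023-78104082, both on the plus strand, encode enzymes of neighbouring steps with ratios on opposite sides of 1. LDHA, at chr11:18394470-18394499 on the plus strand, and BNIP3, at chr10:131982015-131982074 on the minus strand, have 5 and 6 cores in their windows. In these counts a CACGTG adds a core for each strand, so there are fewer separate places than cores.
PFKFB4: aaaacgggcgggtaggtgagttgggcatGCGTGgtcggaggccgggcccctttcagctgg
ANKRD37: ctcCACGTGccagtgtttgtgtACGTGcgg
PGK1: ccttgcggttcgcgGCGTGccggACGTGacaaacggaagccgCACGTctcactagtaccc
GAPDH: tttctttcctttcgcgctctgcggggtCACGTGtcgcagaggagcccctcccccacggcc
LDHA: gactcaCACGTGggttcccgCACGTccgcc
BNIP3: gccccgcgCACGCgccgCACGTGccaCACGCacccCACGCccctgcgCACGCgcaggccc

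The members' promoter windows held the core on either strand in 33 of 57 windows (57.9%). Among the 12940 windows of measured genes the share was 56.2%, and over all listed windows 43.2%. The ACGTG form alone was in 40.4% of the members' windows and in 22.8% of those of measured genes. The palindrome CACGTG, which is also the E-box bound by MYC and related factors, holds the core on both strands, and it was in 10 of the members' windows (17.5%) against 8.47%. Median GC content was 68.4% in the members' windows and 64.8% in those of measured genes, and several members have more than 1 window. Counted per gene, 26 of 30 members (86.7%) and 66.3% of measured genes had a core in at least 1 window, and 66.7% and 29.6% had ACGTG. ANKRD37 and GAPDH hold ACGTG and had lower scaled counts with doxorubicin, PGK1 and LDHA hold it and had higher ones, and the PFKFB4 window has only GCGTG. A match of these letters is a description and not a bound site.

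Levels were compared between genes only per length, as CPM per kilobase of 1 annotated transcript per gene. Transcripts linked to RefSeq were preferred, then coding ones, and among these the longest was taken. GAPDH, which oxidises glyceraldehyde 3-phosphate, had the highest level of the 35 genes, with 2745 untreated and 2040 treated. ENO1, the main enolase, followed with 1087 untreated and 1355 treated, and ALDOA, the main aldolase, with 897 untreated and 808 treated. These 3 enzymes kept the first 3 places in both libraries. At the other end stood PFKFB4 with 0.576 untreated and 0.972 treated, PFKFB2 with 1.02 untreated and 1.54 treated and ANKRD37 with 1.70 untreated and 0.938 treated. VEGFA, which encodes an angiogenic growth factor, was at 131 untreated and 156 treated, so its level was among those of the enzymes and far above the other hypoxia targets, of which P4HA1 reached 20.1 and BNIP3L 17.0 at most. The order follows the annotated lengths, which are uncertain where a gene has transcripts of several lengths.

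**Figure D1:**
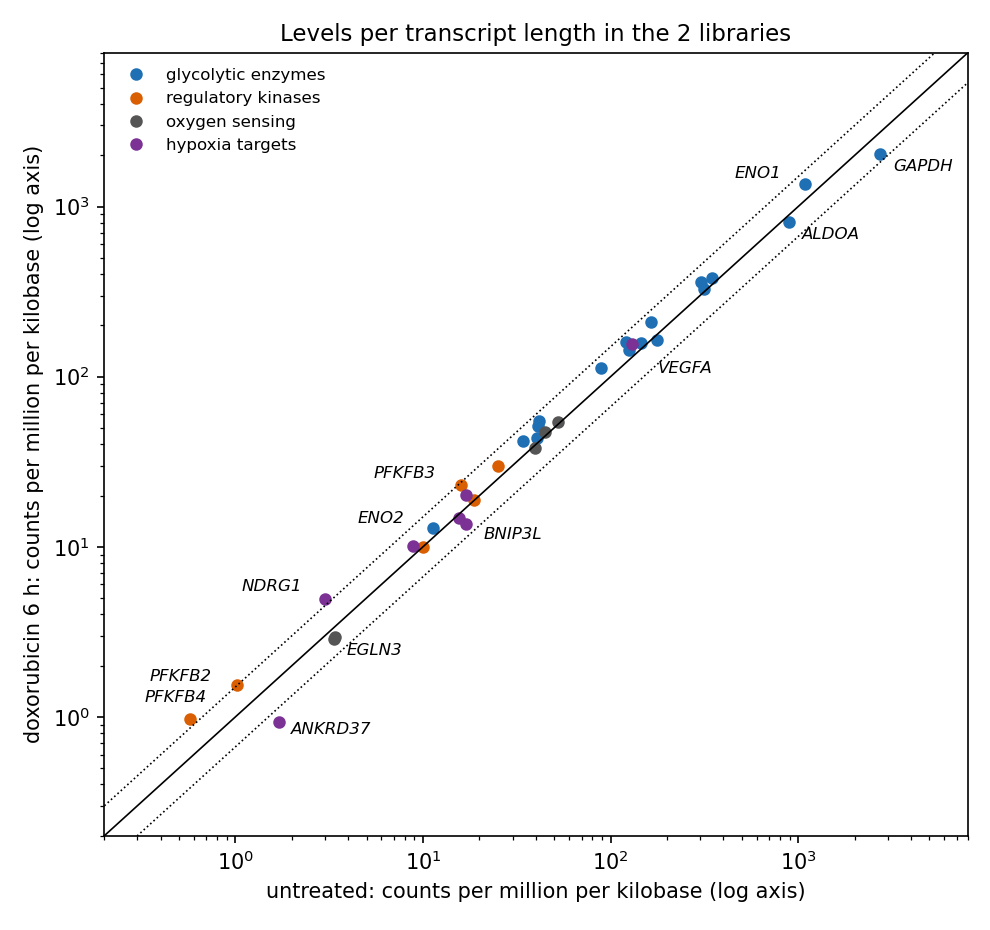
Level of each of the 35 genes per kilobase of transcript in the untreated library (horizontal log axis) and the doxorubicin library (vertical log axis), with the solid line at equal levels and dotted lines at 1.5-fold. Most points lie within the dotted lines, with PFKFB4, PFKFB2 and NDRG1 on or above the upper line and ANKRD37 below the lower.

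Over all 35 members, 3 were higher by the size rule (8.57%), beside 7.26% of all measured genes. Lower by the same rule was 1 member (2.86%), beside 9.57% of all measured genes. The 3 higher members were PFKFB4, NDRG1 and PFKFB2, and the lower one was ANKRD37. The median log2 ratio was 0.20 over the members and 0.0066 over all measured genes. The share called higher is near the background. Most differences were small: 23 of 35 counting intervals lay wholly above a ratio of 1, beside 38.1% of all measured genes, and 7 wholly below, beside 36.9%. Counting intervals of abundant genes are narrow, so that many exclude 1 without any statement about cultures. At a looser size limit, a log2 ratio of 0.32, the counts were 9 higher, beside 20.4% of measured genes, and 3 lower, beside 21.5%. At 2-fold there were 0 in either direction, beside 1.14% higher and 1.56% lower.

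**Figure D2:**
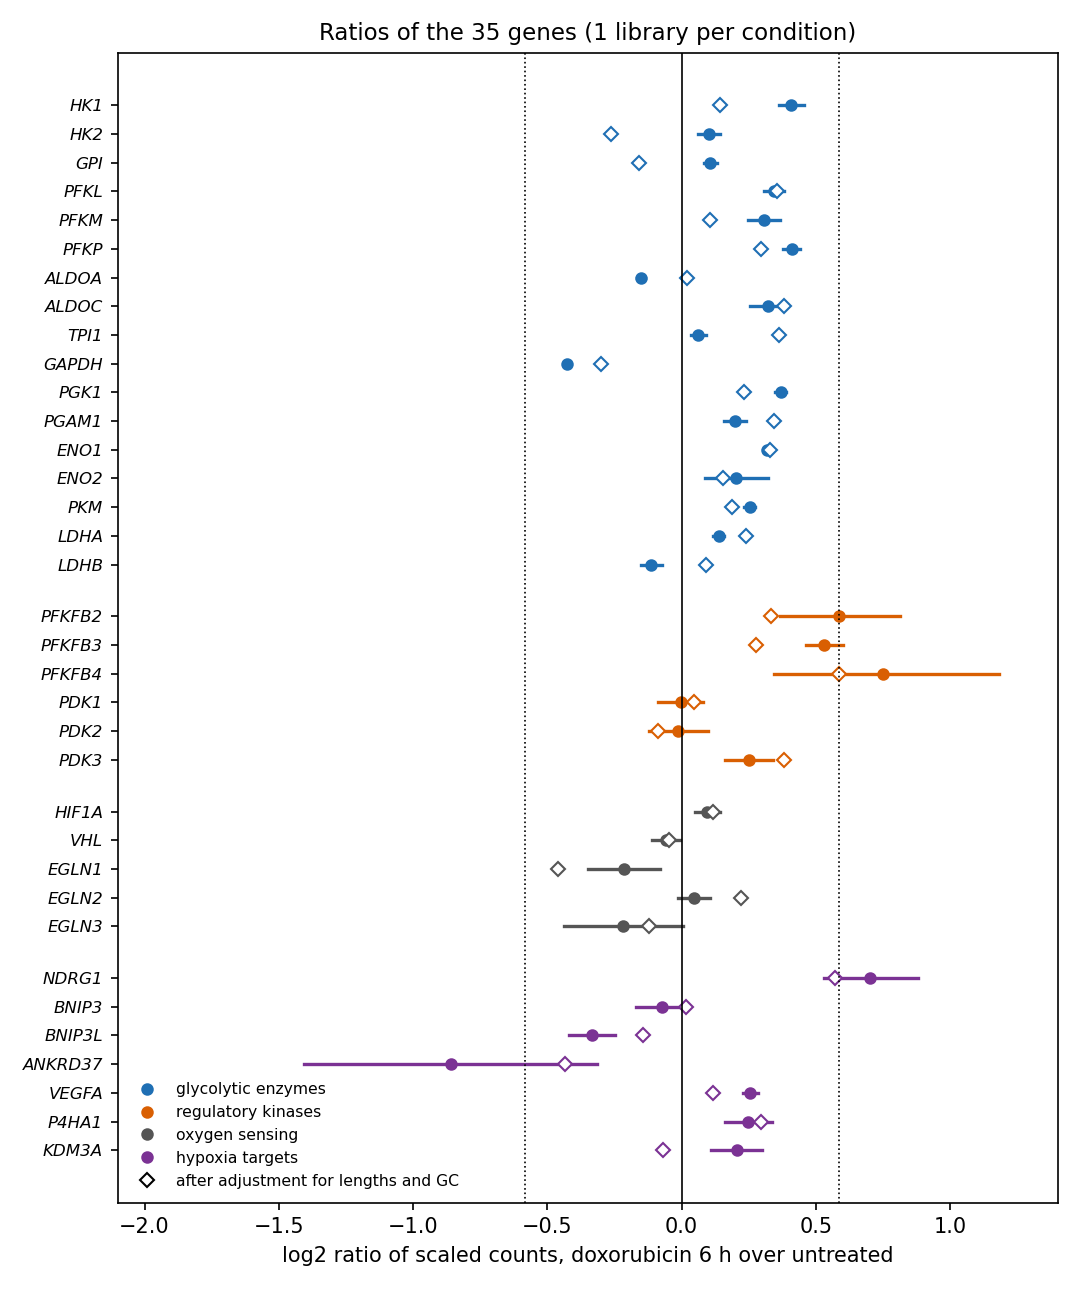
Log2 ratio of treated over untreated for each gene, by role, as filled circles with the 95% counting interval (hidden behind the circle where narrow), and open diamonds after the spline adjustment. Dotted lines mark 1.5-fold. Glycolytic enzymes lie between -0.43 (GAPDH) and 0.41 (PFKP), and the 3 PFKFB genes lie right of all 17.

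Among the 17 glycolytic enzymes, 0 passed the size rule in either direction, beside 7.26% higher and 9.57% lower of all measured genes. A counting interval above 1 was found for 14 and one below 1 for 3, beside 38.1% and 36.9% of all measured genes. The 3 below were GAPDH, ALDOA and LDHB. The median log2 ratio of the enzymes was 0.20, with a range from -0.43 to 0.41. Summed over the pathway the scaled counts hardly differed. All 17 enzymes together took 1.42% of the counts of the untreated library (1.41 to 1.42) and 1.49% of the treated one (1.48 to 1.49), and after TMM scaling the log2 ratio of their sums was 0.0017. GAPDH alone made up 35.5% of these enzyme counts untreated and 26.4% treated. Without GAPDH the other 16 enzymes summed to 307888 and 548798 counts, a 1.14-fold higher sum with doxorubicin.

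The first steps of the pathway spend ATP to trap and split glucose. HK1, the hexokinase that is widely expressed, had 5392 counts untreated and 11164 treated, or 164 CPM untreated and 217 treated. It was 1.33-fold (1.29 to 1.37) higher, below the size limit. HK2, the hexokinase tied to proliferating and glucose-avid cells, had 7731 counts untreated and 12944 treated, or 235 CPM untreated and 252 treated, with a log2 ratio of 0.10 (0.062 to 0.14). GPI, which isomerises glucose 6-phosphate, had 20813 counts untreated and 34943 treated and a log2 ratio of 0.11 (0.082 to 0.13), close to that of HK2. Both HK2 and GPI turned to the other side of 1, at -0.26 and -0.16, under the spline adjustment, which removes the relation of the ratio to transcript length, coding length and GC over all genes. The log2 ratio of HK1 was 0.41 before and 0.14 after this adjustment. Adjusted values below are of this kind unless another is named.

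Phosphofructokinase commits the sugar to glycolysis, and its 3 subunit genes were all higher by similar amounts. PFKP, the platelet-type subunit, had 10995 counts untreated and 22775 treated and was 1.33-fold (1.30 to 1.36) higher. PFKL, the liver type, had 8513 counts untreated and 16840 treated and was 1.27-fold (1.24 to 1.30) higher, and PFKM, the muscle type, had 3615 counts untreated and 6973 treated and was 1.24-fold (1.19 to 1.29) higher. Taken as 1 step, phosphofructokinase had a log2 ratio of 0.37 (0.35 to 0.39), the largest of the 11 steps together with that of phosphoglycerate kinase at 0.37 (0.35 to 0.39). The adjusted log2 ratios of PFKL, PFKP and PFKM were 0.36, 0.29 and 0.11, so each stayed above 0.

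Aldolase splits the sugar into triose phosphates. ALDOA had 49439 counts untreated and 69422 treated, or 1501 CPM untreated and 1351 treated, and a log2 ratio of -0.15 (-0.17 to -0.13). Of the 50-base stretches sampled from it 87.7% occur in the coding gene AC093512.2, which the annotation draws through the same exons, so its value depends on how reads there were assigned. ALDOC, the minor aldolase, had 2679 counts untreated and 5226 treated and a log2 ratio of 0.32 (0.26 to 0.39). The 2 aldolases were thus on opposite sides of 1, although ALDOA came to 0.020 after adjustment. TPI1, which interconverts the trioses, had 16430 counts untreated and 26751 treated and a log2 ratio of 0.062 (0.034 to 0.091), and it shares 24.2% of its stretches with 2 pseudogenes.

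GAPDH and PGK1 catalyse consecutive steps, and their log2 ratios lay farther apart than those of any other neighbouring steps. GAPDH had 169546 counts untreated and 196498 treated, or 5146 CPM untreated and 3825 treated, and was 1.35-fold (1.34 to 1.35) lower. PGK1, which makes the first ATP of the payoff phase, had 26305 counts untreated and 52976 treated, or 798 CPM untreated and 1031 treated, and was 1.29-fold (1.27 to 1.31) higher. Within a library, free of any scaling between libraries, there were 15.5 counts of PGK1 per 100 counts of GAPDH untreated and 27.0 treated, a 1.74-fold higher ratio. Under the spline adjustment, lowess on transcript length, and splines on coding length with GC, the log2 ratio of GAPDH was -0.30, -0.21 and -0.35. That of PGK1 was 0.23, 0.20 and 0.35, so each stayed on its side. GAPDH's annotated transcript, of 1875 bases, falls between bins of measured genes with median lengths of 1835 and 1948.5 bases, whose median log2 ratios were -0.20 and -0.21. Of its exons 14.2% are overlapped by the non-coding gene AC006064.4, and whether counting used the strand is unknown here.

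The last steps lead through phosphoglycerate mutase, enolase and pyruvate kinase to lactate. PGAM1, the mutase, had 7542 counts untreated and 13511 treated and was 1.15-fold (1.12 to 1.18) higher, and 43.1% of its sampled stretches occur in other genes, mostly pseudogenes. ENO1 had 83988 counts untreated and 163231 treated and a log2 ratio of 0.32 (0.31 to 0.33), and its minor relative ENO2, the neuronal enolase, had 898 counts untreated and 1613 treated and a log2 ratio of 0.20 (0.085 to 0.32). PKM, pyruvate kinase, had 27006 counts untreated and 50194 treated and was 1.19-fold (1.17 to 1.21) higher. These genes were all higher by less than 1.3-fold before any adjustment, and their adjusted log2 ratios ran from 0.16 (ENO2) to 0.35 (PGAM1). LDHA, the lactate dehydrogenase subunit that favours lactate formation, had 27600 counts untreated and 47339 treated and a log2 ratio of 0.14 (0.12 to 0.16). LDHB, the subunit that favours pyruvate, had 8942 counts untreated and 12896 treated and a log2 ratio of -0.11 (-0.15 to -0.074), and 56.7% of its stretches occur in the overlapping coding gene AC010197.2. LDHB was at 0.090 after adjustment and so did not keep its side of 1.

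Isozyme shares were computed within each library, where neither depth nor scaling between libraries enters. HK1 made up 41.1% (40.2 to 41.9) untreated and 46.3% (45.7 to 46.9) treated of hexokinase counts, and the intervals did not overlap. LDHA made up 75.5% (75.1 to 76.0) untreated and 78.6% (78.3 to 78.9) treated of lactate dehydrogenase counts, again without overlap. ALDOC, the minor form, had a larger share in the treated library, from 4.37% to 5.97% of aldolase counts per kilobase. The make-up of phosphofructokinase was nearly constant, with PFKP at 47.6% (46.9 to 48.2) untreated and 48.9% (48.4 to 49.3) treated. ENO1 made up 98.98% and 99.05% of enolase counts per kilobase, and the intervals of its raw shares overlapped. Per kilobase of transcript the HK1 share went from 50.4% to 55.7% and the LDHA share from 66.3% to 70.0%. Transcripts of the compared isozymes differ in length. They have 3961 bases for HK1 and 5772 for HK2, and 2416 for LDHA and 1538 for LDHB. With lowess on transcript length the log2 ratios of LDHA and LDHB were 0.23 and 0.20, against 0.14 and -0.11 unadjusted. Under the splines they were 0.24 and 0.090. Those of HK1 and HK2 were 0.32 and -0.11 with lowess and 0.14 and -0.26 under the splines, against 0.41 and 0.10 unadjusted. The part of length in these shares was not tested.

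**Figure D3:**
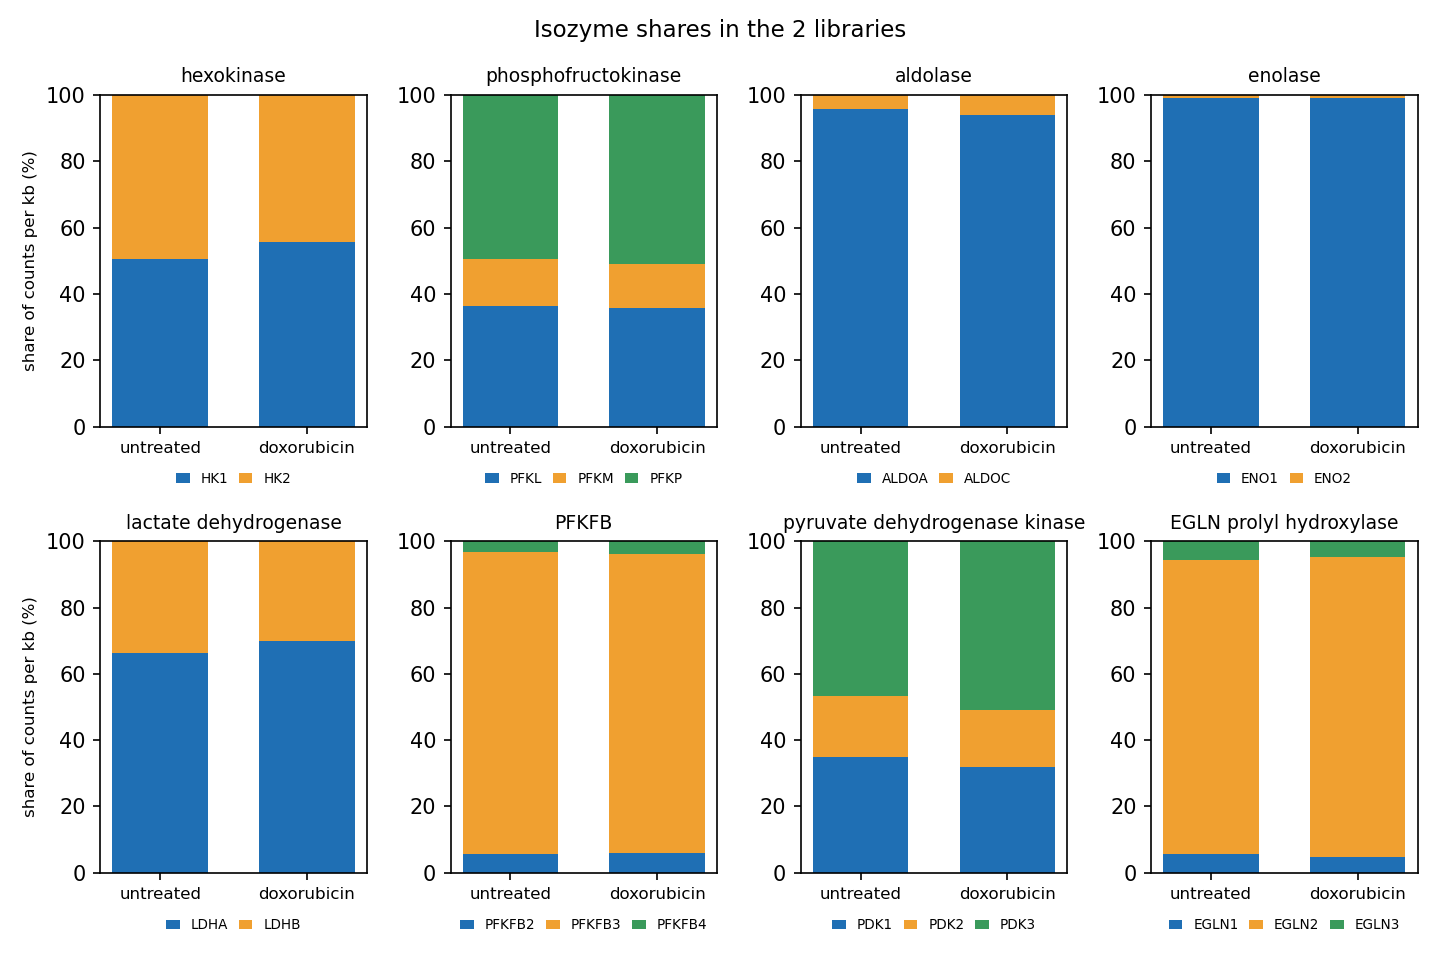
Share of each isozyme in the counts per kilobase of its step or family (vertical axis, percent), in the untreated and the doxorubicin library. HK1, LDHA and PDK3 have larger shares in the doxorubicin library, while the make-up of phosphofructokinase, enolase and the PFKFB family is nearly the same in both.

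The 6 regulatory kinases had a median log2 ratio of 0.39. By the size rule 2 were higher and 0 lower, beside 7.26% and 9.57% of all measured genes. The highest ratios were those of the PFKFB genes, which encode bifunctional enzymes that make and break fructose 2,6-bisphosphate, the activator of phosphofructokinase. PFKFB3, the form with the strongest kinase activity, had 2386 counts untreated and 5380 treated, or 72.4 CPM untreated and 105 treated. It was 1.45-fold (1.38 to 1.52) higher, just under the size limit. PFKFB2, the heart-type form, had 239 counts untreated and 560 treated and a log2 ratio of 0.59 (0.37 to 0.81), just inside it. PFKFB4 had only 68 counts untreated and 179 treated and was 1.68-fold (1.27 to 2.27) higher, the highest ratio of the set, with a wide interval. All 3 lay in the upper ranks of measured genes, at percentiles 90.9, 92.8 and 96.7 in that order. After adjustment PFKFB2 was at 0.33 and PFKFB3 at 0.28, under the limit. PFKFB4 was then at 0.59 (0.18 to 1.02), only just past the size rule. PFKFB3 supplied 88.6% (87.3 to 89.8) untreated and 87.9% (87.1 to 88.7) treated of the family's counts, and these intervals overlapped.

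Pyruvate dehydrogenase kinases switch off the entry of pyruvate into the citric acid cycle, and PDK1 is a classical target of the hypoxia-inducible factor. PDK1 had 1849 counts untreated and 2876 treated, or 56.1 CPM untreated and 56.0 treated, with a log2 ratio of -0.0036 (-0.088 to 0.082). PDK2 had 1136 counts untreated and 1757 treated with a log2 ratio of -0.012 (-0.12 to 0.10), and 38.6% of its exons are overlapped by SAMD14. Both intervals include 0, so no difference was detectable at this depth. PDK3 had 1588 counts untreated and 2946 treated and was 1.19-fold (1.12 to 1.27) higher, and its adjusted log2 ratio was 0.38. Its share of the family's counts per kilobase was 46.6% to 51.0% from the untreated to the treated library, and the intervals of the raw shares did not overlap.

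The genes of oxygen sensing had a median log2 ratio of -0.058. The size rule was passed by 0 of 5, beside 7.26% higher and 9.57% lower of all measured genes. HIF1A had 5797 counts untreated and 9656 treated, or 176 CPM untreated and 188 treated, with a log2 ratio of 0.10 (0.048 to 0.14). VHL had 4884 counts untreated and 7315 treated and a log2 ratio of -0.058 (-0.11 to -0.0055). Neither reached the size limit, and the scaled levels of each were close in the 2 libraries. EGLN2, the most abundant of the 3 prolyl hydroxylases here, had 3731 counts untreated and 6004 treated and a log2 ratio of 0.045 (-0.014 to 0.10). It shares 92.9% of its stretches with the overlapping coding genes RAB4B-EGLN2 and AC008537.1, so its count is uncertain. EGLN1, the main sensor in most cells, had 796 counts untreated and 1070 treated and a log2 ratio of -0.21 (-0.35 to -0.080), and EGLN3 had 299 counts untreated and 401 treated and one of -0.22 (-0.44 to 0.0035). EGLN3 is itself induced by the factor and was not higher in the treated library. EGLN1 made up 16.5% (15.5 to 17.6) untreated and 14.3% (13.5 to 15.1) treated of the counts of the 3 genes, and its adjusted log2 ratio of -0.46 was the lowest of the 35.

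The 7 hypoxia targets differed in direction. With doxorubicin 1 was higher by the size rule and 1 lower, beside 7.26% and 9.57% of all measured genes. Their median log2 ratio was 0.20 before adjustment and 0.016 after. NDRG1, which is induced by hypoxia and many stresses, had 372 counts untreated and 945 treated, or 11.3 CPM untreated and 18.4 treated. It was 1.63-fold (1.44 to 1.84) higher, and after adjustment its log2 ratio was 0.57, just under the size limit. VEGFA had 15207 counts untreated and 28307 treated, or 462 CPM untreated and 551 treated, and was 1.19-fold (1.17 to 1.22) higher. P4HA1, a collagen prolyl hydroxylase subunit, had 1586 counts untreated and 2939 treated and was 1.19-fold (1.12 to 1.26) higher. KDM3A, a histone demethylase, had 1415 counts untreated and 2543 treated with a log2 ratio of 0.20 (0.11 to 0.30), which was -0.070 after adjustment.

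The mitophagy receptors BNIP3 and BNIP3L stood on the other side. BNIP3 had 1471 counts untreated and 2179 treated and a log2 ratio of -0.074 (-0.17 to 0.022), an interval that includes 0. BNIP3L had 2026 counts untreated and 2508 treated and was 1.26-fold (1.19 to 1.34) lower, with an adjusted log2 ratio of -0.15. ANKRD37, a small ankyrin-repeat gene, had 64 counts untreated and 55 treated, the fewest of the 35 genes over both libraries, and a log2 ratio of -0.86 (-1.41 to -0.32). Its exons are overlapped over 35.2% of their length by UFSP2, which had 424 and 847 counts, and its transcript of 1141 bases is the shortest of the set. After adjustment it was at -0.43 (-0.98 to 0.11), no longer past the size rule. The classical targets thus lay between -0.86 and 0.70 with no common direction.

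Transcript length went with the ratio over the whole table, with Spearman's rho of 0.552 across 11043 genes, which are not independent replicates. The median log2 ratio was -0.39 in the shortest of 5 length classes of measured genes and 0.28 in the longest. Among the 35 members rho was 0.343, and among the 17 enzymes 0.522, as descriptions over genes that share both libraries. The enzymes have short transcripts, with a median of 2423 bases against 3264 for all measured genes, and 14 of 17 lay above the lowess curve of all genes at their length. After the spline adjustment the median log2 ratio was 0.19 for the enzymes, 0.31 for the kinases and -0.046 for oxygen sensing, beside -0.0083 for all genes adjusted in this way. By the size rule 1 of 35 members was then higher, beside 4.13% of genes, and 0 were lower, beside 3.6%. With lowess on transcript length alone 2 were higher, beside 4.89%, and 0 lower, beside 4.66%. PFKFB4 was past the rule in both, though only just under the splines, and NDRG1 with lowess alone. 7 members changed sign under the spline adjustment: HK2, GPI, ALDOA, LDHB, PDK1, BNIP3 and KDM3A. The annotation gives some enzymes long transcripts, such as 5772 bases for HK2 and 4887 for PGK1, and the transcripts present may be of other lengths.

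**Figure D4:**
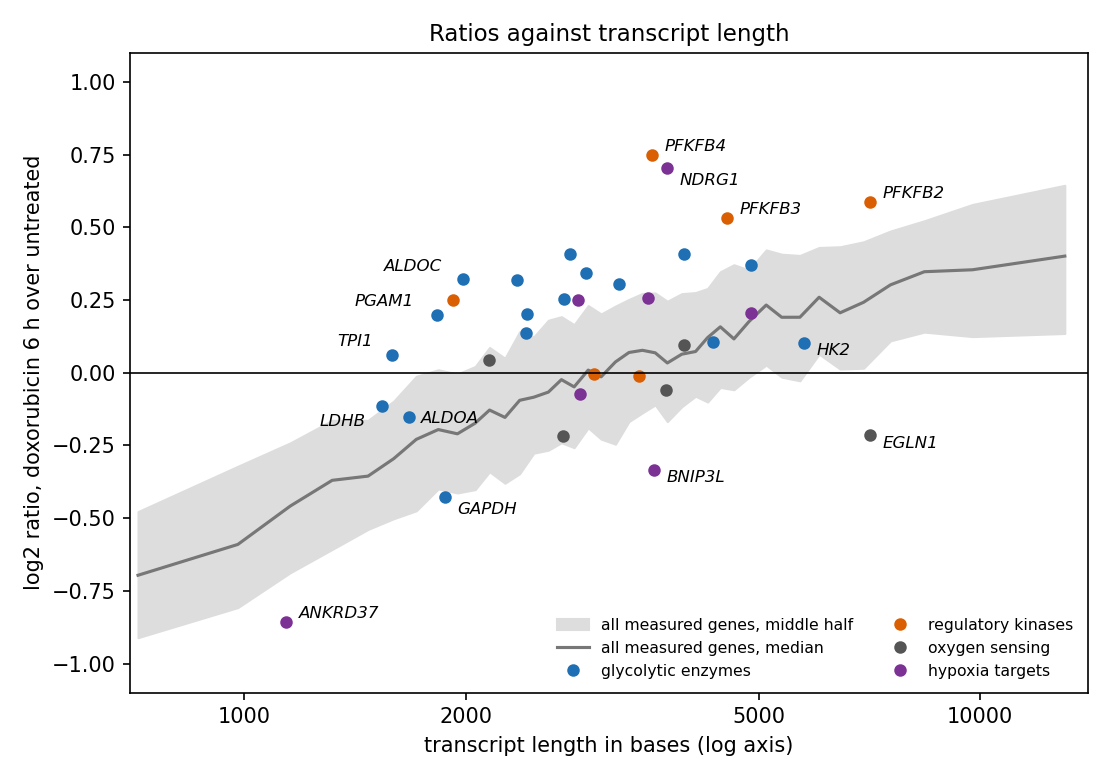
Log2 ratio of treated over untreated against transcript length in bases (log axis) for the 35 genes, over the median (line) and interquartile range (grey) of all measured genes in bins of length. GAPDH lies below the line at 1875 bases, while ALDOC, PGAM1 and TPI1 lie above the grey band at similar lengths.

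Other genes of these pathways, from lists that hold no member, were read beside the same background. Of the carriers of glucose, lactate and pyruvate, 11 of 13 were measured, 0 higher and 1 lower by the size rule, beside 7.26% and 9.57% of all measured genes. SLC2A1, the main glucose importer, had 1736 counts untreated and 4030 treated and was 1.49-fold (1.41 to 1.58) higher, just under the size limit. SLC2A3, a high-affinity glucose importer, had 549 counts untreated and 1186 treated and a log2 ratio of 0.47 (0.32 to 0.62), and SLC16A3, a lactate exporter, had one of 0.32 (0.18 to 0.47). On the other side was BSG, a chaperone of lactate carriers with the most counts of the list, with 20260 counts untreated and 24041 treated and a log2 ratio of -0.39 (-0.42 to -0.37). Of the 11 intervals 6 lay wholly above 1 and 3 wholly below, the latter those of BSG, MPC1 and MPC2. MPC1, a subunit of the mitochondrial pyruvate carrier, had 5701 counts untreated and 4823 treated and was 1.84-fold (1.77 to 1.92) lower, although at -0.28 after adjustment. Of these, SLC2A1, SLC2A3, SLC16A3, BSG and MPC2 were named after their values were seen.

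Of the pyruvate dehydrogenase complex and its regulators, 8 of 9 were measured, 2 higher and 0 lower, beside 7.26% and 9.57% of all measured genes. The higher ones were PDP2, a catalytic subunit of the phosphatase that reverses the action of the kinases, and PDPR, that phosphatase's regulatory subunit. PDPR was 1.92-fold (1.86 to 1.97) and PDP2 1.61-fold (1.49 to 1.75) higher, and they came to 0.50 and 0.40 after adjustment, under the limit. With lowess on transcript length alone they were at 0.60, still called, and 0.42. Of the exons of PDPR 19.6% are overlapped by the gene AC009060.1, and 14.4% of its sampled stretches occur in other genes. Of the other isozymes, 10 of 21 were measured, with FBP2 and PGM1 higher and BPGM lower, beside the same background. PGM1, which links glycogen to glycolysis, had 1519 counts untreated and 3746 treated and was 1.58-fold (1.49 to 1.68) higher, with an adjusted log2 ratio of 0.59. FBP2, a fructose bisphosphatase, had 162 counts untreated and 397 treated and was 1.57-fold (1.31 to 1.90) higher. BPGM, which makes 2,3-bisphosphoglycerate, had 569 counts untreated and 574 treated and was 1.55-fold (1.37 to 1.74) lower, and was at -0.41 after adjustment.

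Of the partners and degradation machinery of the factor, 13 genes were in the count table and 11 were measured. By the size rule 3 were higher (27.3%) and 4 lower (36.4%), beside 7.26% and 9.57% of all measured genes. EPAS1, the paralogue of HIF1A, had 520 counts untreated and 1232 treated and was 1.52-fold (1.37 to 1.69) higher. The coactivators EP300 and CREBBP had log2 ratios of 0.88 (0.80 to 0.95) and 0.79 (0.70 to 0.87), and all 3 have long transcripts, from 5166 to 10803 bases. The small VHL-complex subunits ELOB, ELOC and RBX1 were 1.81-fold (1.71 to 1.91), 1.78-fold (1.66 to 1.91) and 1.53-fold (1.44 to 1.62) lower. After adjustment 1 of these 11 genes was still called, SIAH1, a ubiquitin ligase that acts on the prolyl hydroxylases. It had 397 counts untreated and 335 treated and was 1.85-fold (1.59 to 2.14) lower, with an adjusted log2 ratio of -0.72. Of its exons 26.7% are overlapped by the coding gene LONP2. Beside this 1 call stand 4.13% of all adjusted genes called higher and 3.6% lower. With lowess alone ELOC was still called too, at -0.64. Of the other hypoxia-induced genes, 31 were in the count table and 21 were measured. Lower by the size rule was 1 gene (4.76%), beside 9.57% of all measured genes. This gene, FAM162A, had 4487 counts untreated and 4149 treated and was 1.69-fold (1.62 to 1.76) lower. It was at -0.46 after adjustment, no longer past the size rule, and at -0.76 with lowess alone, still called. The hypoxia markers CA9 and CA12 were at 0 throughout, a count that allows levels of 0.0911 CPM untreated and 0.0584 treated at most (3 counts). CA9 and CA12 were named after their values were seen. The median of this list was 0.063 before adjustment and -0.011 after.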

How the data were processed

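The authors deposited raw read counts per gene symbol, 1 column per library, neither scaled nor corrected for length. HISAT2, featureCounts and the build hg19 are named in the submitters' processing notes, while their versions, strand setting, annotation and handling of multi-mapped reads stay not given in the sources used here. RNA was poly(A)-selected, per the labels' protocols. From these counts, TMM sizes came from edgeR 4.0.16 in R 4.3.3, log2 ratios used an added count of 0.5, and intervals came from scipy 1.17.1. They cover counting error only. The protocols describe PCR and mention no molecular identifiers, so reads copied from 1 molecule cannot be told apart. The intervals may therefore be too narrow. Lengths of transcripts and coding sequences and their GC content were read from GENCODE release 29 (another assembly) for 11043 of 11244 measured genes (98.2%). They were adjusted for by lowess (span 0.3) or cubic regression splines with 5 knots. Shared sequence was counted as exact stretches of 50 bases, sampled every 25. Alternatives were DESeq2 1.42.0 size factors, total counts, other count minimums, size limits, intervals and added counts. The calculations were tested on simulated data. All 35 members are named, and from each further list the measured genes past the size rule, or the 2 with the most counts. A result on 1 gene of the further lists is not reported here. Members and lists were chosen with earlier results of these data known.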

Additional observations from a re-analysis of the deposited data

How the results depend on the processing

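The count of 3 members called higher became 1 under the splines, 9 at the looser size limit and 0 at a 2-fold limit, and stayed within 2 to 4 with DESeq2 size factors, total counts, lowess, an added count of 5, other count minimums or a 99% interval. The count of 1 member called lower, ANKRD37, became 0 under lowess, under the splines, at a count minimum of 500 and at a 2-fold limit, and 3 at the looser size limit. Splines on coding length and GC without transcript length, chosen after the data were seen, gave 2 higher and 0 lower. PFKFB2 was no longer called with an added count of 5 or under any of the 3 adjustments. PFKFB4 was not measured at a count minimum of 500, and PFKFB3 was called under total counts. The median log2 ratio of all members was 0.27 under total counts, which shifts every gene by 0.068 and turned the signs of PDK1, PDK2 and VHL. The group medians of the 4 roles stayed within the order-statistic ranges of their members under every scaling, adjustment and count minimum tried. Such ranges are wide in groups of few genes, so this says little about how stable the medians are. That of the hypoxia targets was 0.20 in the main setting, 0.037 under lowess and 0.016 under the splines. The median of oxygen sensing turned to 0.0099 under total counts. Of single members 4 changed sign under lowess, 7 under the splines and 7 under coding length and GC content, and none of the 4 called members did. The differences in isozyme share kept their signs for all 20 isozymes without length or with coding length in place of transcript length. In steps with 2 isozymes this was fixed in advance, since a gene's length weight is the same in both libraries. No paired analysis was possible because each condition has 1 library. Depth limits PFKFB4 and ANKRD37 most, with at most 179 counts in a library.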

Other observations

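GAPDH is often used to set other mRNAs to a common scale. In these libraries that choice raises the ratio of every other gene by the same factor, as against TMM scaling. Counted per GAPDH count in the same library, 33 of the 34 other members were higher in the treated library, beside 9428 of 11243 measured genes other than GAPDH, since GAPDH itself is lower there. Of these members 18 (52.9%) were at least 1.5-fold higher. Among those measured genes 3934 (34.99%) were. ANKRD37 was the only other member below 1, at 0.742. ENO1 had 49.5 counts per 100 counts of GAPDH untreated and 83.1 treated. This scaling was tried after the data were seen.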
